A study of Bos grunniens with 12 samples.

Results

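The genes described here are those of the yak (Bos grunniens) that carried the Gene Ontology (GO) annotation of DNA-binding transcription factor activity specific to RNA polymerase II and at least 1 m6A peak called as differential between testes before and after sexual maturity, leaving out symbols that begin with ZNF, IRF or SMAD. Of 20953 genes in the expression table, 737 had the annotation, 90 of these also had a differential peak, and 64 remained once 26 ZNF genes were left out. No gene with an IRF or SMAD symbol met both criteria. The 64 genes held 78 of the 1438 differential peaks. The choice rests on measured values, since each gene is here because its peak passed the authors' comparison of the ages. That table gives no fold change, p-value or direction for a peak, so it is not known from it at which age a peak was stronger, and genes just inside or outside the threshold cannot be shown.

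Testes of 6 healthy yaks were sequenced, 3 of 1.5 years (Y group, sexual maturity not reached) and 3 of 5 years (M group, sexual maturity reached), with no genotype or treatment named for either. Every testis gave an input library of fragmented poly(A) RNA and an IP library of the fragments bound by an antibody against m6A, 12 libraries in all. Y group testes came from castration and M group testes from animals that were killed (slaughtered per the labels, euthanised per the study's methods), so age and the way of collection cannot be told apart. The ages were taken from the sample titles; the developmental stage field of the deposited record names the opposite stage, and its protocol text uses the letters M and Y the other way round. Elongating spermatid markers were present in the libraries labelled 1.5 years, at higher levels than in those labelled 5 years (summed FPKM of 1150 to 1190 against 263 to 849), which goes against a label of sexual maturity not reached. If the stage field held and not the titles, every difference given here as M minus Y group would have the opposite sign.

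m6A is a methyl mark that methyltransferases place on adenosines of mRNA, often near the stop codon and in the 3′UTR, and that reader proteins recognise to change the stability or translation of the transcript. Transcription factors set which genes are transcribed and are known to direct each step of spermatogenesis, from spermatogonia through meiosis to spermatids, as well as the functions of Sertoli and Leydig cells. Their mRNAs are often short-lived, and m6A is known as a mark of such transcripts.

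Read by their symbols, the 64 genes fell into 10 classes, which were drawn up after the genes were known. There were 8 BTB zinc finger genes, 5 SP and KLF genes, 5 SCAN zinc finger genes, 7 other zinc finger genes, 5 homeobox genes, 6 bZIP, bHLH, forkhead and NF-Y genes, 6 AT-hook, HMG, ARID and Myb/SANT genes, 7 chromatin enzymes or corepressors and 2 RNA binding proteins, ZFP36L2 and CARHSP1. The other 13 carried the symbol of a protein that is not known as a transcription factor, such as DOHH, an enzyme of hypusine synthesis, or ATP9A, a phospholipid flippase. The classes of RNA binding proteins and of chromatin enzymes or corepressors also held genes known for other functions, such as ZFP36L2 and KDM5C. The name of transcription factor genes therefore held only in part, and the set is defined by its annotation. UBE2M stood on 44 identifiers in the table, 12 of them with the annotation, 5 with a differential peak and 2 among the 64. SLC5A4 stood on 16 identifiers and DUXA on 12. Of the 13 genes with the symbol of another protein, 8 had as their only GO terms the same set of 4 (the annotation used here, DNA binding, nucleus and metal ion binding), against 13 of the 64 and 147 of all 737 genes with the annotation. Without these 13, 51 genes remained, with the RNA binding proteins and the chromatin enzymes or corepressors still among them.

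The first question was where the peaks lay. Of the 78 peaks, 64 were annotated to an exon (82.1%, 95% Wilson interval 72.1 to 89), 12 to the 3′UTR (15.4%, 9.03 to 25) and 2 to the 5′UTR (2.56%, 0.706 to 8.88). Among the 1360 peaks of other genes these shares were 75.5%, 18% and 6.47%. Of the exon peaks, 10 lay in the first of several exons, 28 in a middle exon, 21 in the last exon and 5 in a gene annotated with a single exon. The last exon of several held 26.9% of the 78 peaks (18.3 to 37.7) and 12.6% of the peaks of other genes (11 to 14.5). Among peaks of at most 1000 bp these shares were nearer to each other, at 30.4% and 18.1%. The share was not particular to these genes, since it was 45.45% of the 33 peaks of the left-out ZNF genes. The intervals cover counting error only, peaks of a gene are not independent, and no test of these differences was made.

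Most peaks were short. The median width was 298.5 bp, against 400 bp in other genes, and 69 of the 78 (88.5%, interval 79.5 to 93.8) were at most 1000 bp wide, against 67.9% (65.3 to 70.3). Short peaks were not particular to these genes. The 33 peaks of the left-out ZNF genes had a median width of 299 bp, and 84.85% were at most 1000 bp wide. Widths of the 78 peaks ran from 148 to 39637 bp and are lengths on the genome, introns included. The 3 peaks wider than 10000 bp lay on TET3 (39637 bp), ARID1A (26978 bp) and NFYC (20062 bp), and NFYC is named here after its values were seen. The median peak started 66.4% of the way along its gene, against 69.5% in other genes, and the median gene was shorter, at 22320 against 35610 bp.

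**Figure D1:**
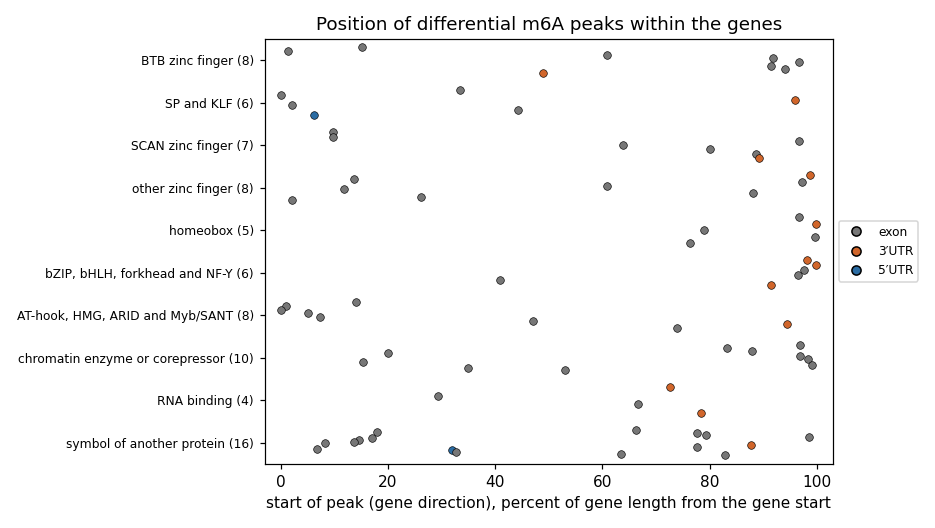
Each point is 1 of the 78 differential peaks, placed by its start in percent of the gene length from the gene start (x axis), with the classes in rows (number of peaks in brackets) and the annotated region by colour. The 12 peaks in the 3′UTR start between 48.9% (ZBTB47) and 99.8% (FOXN3 and HMBOX1) of the gene length, and exon peaks are spread over the whole length.

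Of the 64 genes, 52 had 1 differential peak, 10 had 2 and 2 had 3. The 3 peaks of ZFP36L2 (ENSBGRG00000020995), a protein that binds AU-rich elements and promotes mRNA decay, all lay within a gene of 2532 bp on the minus strand of chromosome 9 of LU_Bosgru_v3.0. They were at chr9:45491014-45491461 and chr9:45490318-45490516, both in exon 2 of 2, and at chr9:45489969-45490218 in the 3′UTR. BCS1L (ENSBGRG00000001065), a symbol known for a mitochondrial chaperone, had 1 peak in exon 2 of 8 at chr2:33048548-33052068 and 2 in exon 6, at chr2:33057741-33057891 and chr2:33057991-33058290.

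In KLF13, ZBED6, ZKSCAN4 and TET3 the 2 peaks lay toward opposite ends of the gene. KLF13 (ENSBGRG00000010998), a Krüppel-like zinc finger factor, had a peak in exon 1 of 2 at chr17:29117497-29117695 and another in the 3′UTR at chr17:29161501-29161649. ZBED6 (ENSBGRG00000008085), a factor derived from a transposase that is known to repress IGF2, had its peaks at chr14:83879385-83880233 and chr14:83881629-83881978, 11.9% and 88.1% of the way along its only exon. ZKSCAN4 (ENSBGRG00000015685), with a SCAN domain through which zinc finger proteins dimerise, had peaks in its first and last exons, at chr24:4583468-4583617 and chr24:4592316-4592662.

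TET3 (ENSBGRG00000010501), which oxidises 5-methylcytosine in DNA, had a short peak in its last exon at chr9:28989870-28990120 beside the wide peak that began in exon 2 of 13. LCOR (ENSBGRG00000026094), a corepressor of nuclear receptors, had 2 peaks in last exons, at chr25:19602099-19602596 and chr25:19627367-19628113, which the annotation assigned to transcripts of unlike length. Both peaks lay in exon 1 of ELMSAN1 (ENSBGRG00000017732), in exon 2 of TLE6 (ENSBGRG00000001055) and in exon 3 of ZKSCAN7 (ENSBGRG00000015367). SLC5A4 (ENSBGRG00000020704) had 1 in exon 2 and 1 in the 5′UTR, and HMGXB3 (ENSBGRG00000020613) had them in exons 3 and 11 of 19.

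Genes with a single peak in the 3′UTR included FOSL2 (ENSBGRG00000006787, chr9:95717305-95717452), a Fos family partner of Jun proteins, and CARHSP1 (ENSBGRG00000007069, chr26:39170500-39170847), a cold shock domain protein. BNC1 (ENSBGRG00000016740, chr17:25835668-25835817), a zinc finger protein known from germ cells, and ZSCAN29 (ENSBGRG00000009662, chr17:59217404-59217553) were others. So were FOXN3, HMBOX1, IGLON5, MYSM1, TCF3 and ZBTB47. The peak of SP1 (ENSBGRG00000003298), which binds GC-rich promoter elements, lay in the 5′UTR at chr5:81015625-81015774. Those of PATZ1 (ENSBGRG00000008657, chr16:77830159-77830606) and DHRSX (ENSBGRG00000019175, chrY:7369062-7369709) lay in the first exon, the peaks of TSHZ1 (ENSBGRG00000022648, chr21:10006742-10007092) and GAB3 (ENSBGRG00000018441, chrX:38991942-38992186) in the last or only exon, and that of ZHX2 (ENSBGRG00000018256, chr18:4419653-4419949) in a gene of 1 exon. ZBTB38 (ENSBGRG00000001246, chr1:138899111-138899457) had its peak in exon 2 of 3, ZKSCAN2 (ENSBGRG00000018997, chr26:22100528-22102852) in exon 2 of 9, KDM5C (ENSBGRG00000025771, chrX:98241009-98242478) in exon 20 of 28 and ARID1A (ENSBGRG00000008144, chr2:11088128-11115105) from exon 1 of 20.

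The next question was how high the RNA levels of these genes were in the testis. FPKM, a fragment count scaled to transcript length and to the mapped fragments of the library, corrects for length, so levels can be compared between genes. In the input libraries the 64 genes had a median mean FPKM of 3.15 (range 0.00834 to 19.9), against 1.1 for the 647 annotated genes without a differential peak and 3.84 for the 1115 other genes with one. A mean of at least 0.5 FPKM was reached by 62 of the 64 (96.9%) and by 399 of the 647 (61.7%). The choice required a called peak, so these levels are not independent of it. INTS6L and SDR9C7 stayed under that level. INTS6L was listed at 0 in 5 libraries and at 0.05 in the M group replicate 3. SDR9C7 was listed at 0 in 4 libraries, at 0.291 in the Y group replicate 1 and at 0.135 in the M group replicate 3. Both carry the symbols of other proteins and were not tested.

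The 5 genes with the highest mean level were CARHSP1, ARID1A, ZFP36L2, GAB3 and SP1. ARID1A, a subunit of the BAF chromatin remodelling complex, stood at 9.45, 8.66 and 9.68 FPKM in the Y group and at 10.8, 9.57 and 9.19 in the M group. GAB3, known as an adaptor of growth factor signalling, stood at 9.35, 6.94 and 5.94 in the Y group and at 12.6, 6.14 and 10.1 in the M group. The ages overlapped for both genes. SP1 stood at 7.16, 6.73 and 7.48 in the Y group and at 7.91, 8.43 and 7.75 in the M group, all above the Y group by a small margin (log2 fold change 0.17 ± 0.13, SE).

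**Figure D2:**
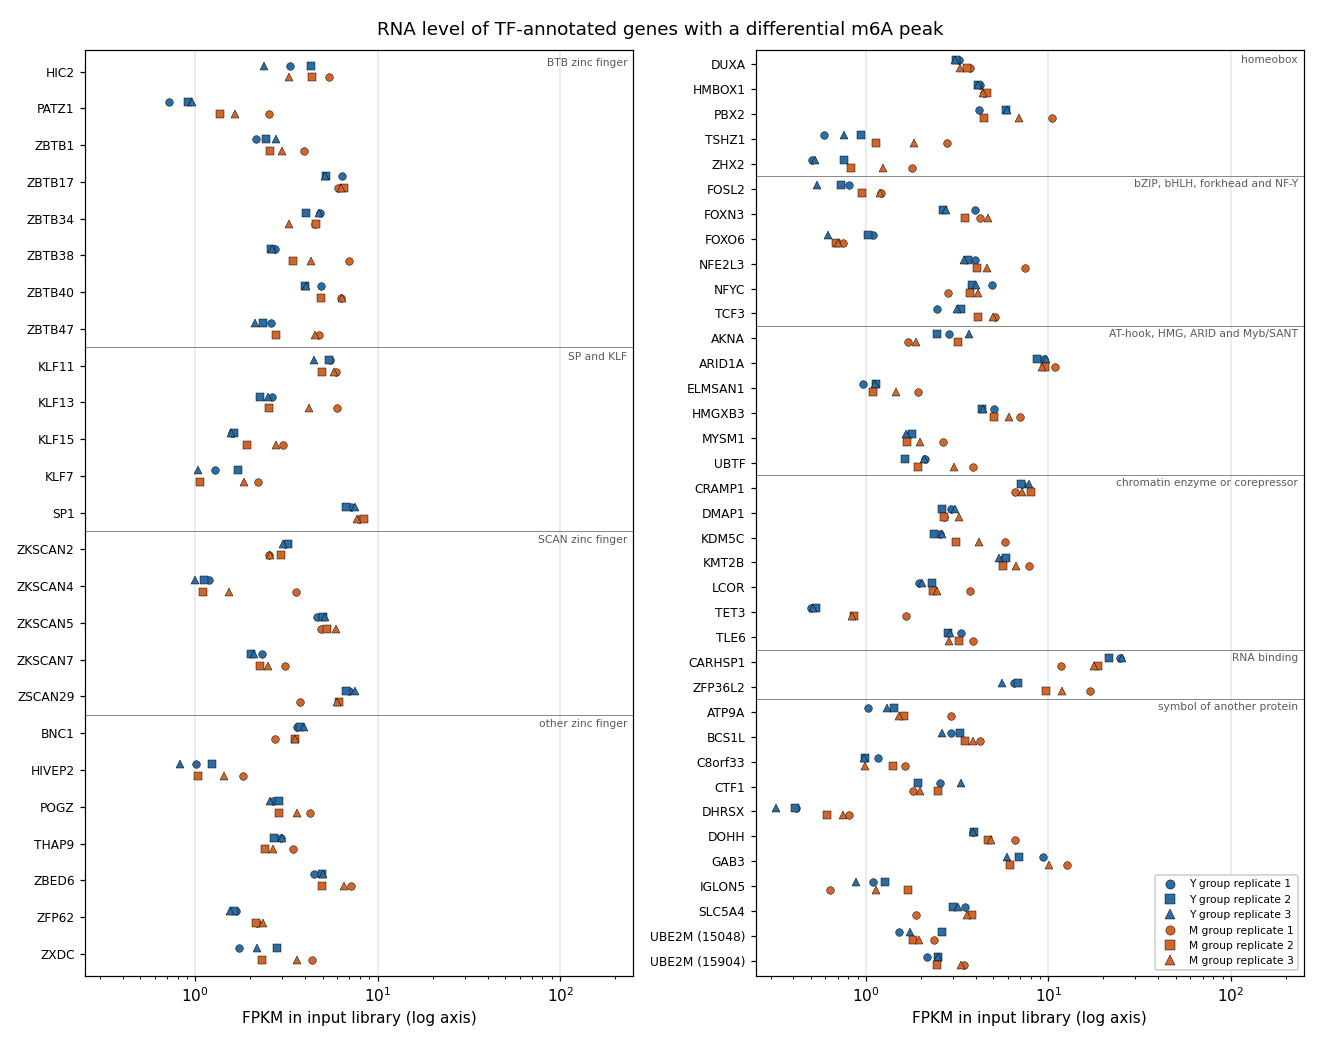
FPKM of the 62 tested genes in each input library (x axis, log scale), by class and in alphabetical order, with Y group libraries in blue and M group libraries in orange and the replicate number by symbol. CARHSP1 is the highest gene and the M group libraries of ZFP36L2, at 9.73 to 16.8 FPKM, lie to the right of its Y group libraries, at 5.54 to 6.78.

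The input libraries were then compared between the ages. They also served as the control in the peak comparison that chose the genes, so this contrast is not independent of the choice, and its values are given as a description from which nothing about the set is read. Of the 62 tested genes, 16 were higher in the M group at an unadjusted limma p-value under 0.05, as were 14.2% of all 12437 genes tested, and 1, CARHSP1, was lower (10.9% of all). None had an adjusted p-value under 0.05 with the Benjamini-Hochberg method in limma, the smallest being 0.154, and 0.0322% of all genes did. All M group libraries lay above all Y group libraries for 23 genes (19.8% of all) and below them for 4 (13.9% of all). The median log2 fold change, M minus Y group, of FPKM + 0.1 was 0.35 (range -0.60 to 1.16), with 49 genes above 0 and 13 below. Over all genes tested it was 0.04, over other genes with a differential peak 0.17 and over annotated genes without one 0.10. Of 1094 other tested genes with a differential peak, 328 (30%) had all M group libraries above the Y group and 115 all below. Of the 26 left-out ZNF genes, 14 (53.8%) lay above and 1 below. Of 399 tested annotated genes without a differential peak, 83 (20.8%) lay above and 47 below. At an unadjusted limma p-value under 0.05, 259, 8 and 53 were higher and 86, 1 and 34 lower. A raised share was therefore not particular to the 62 genes. In whole tissue, a change in the number of cells of a type and a change in RNA per cell cannot be told apart. With 3 libraries against 3, an exact permutation test cannot give a two-sided p below 0.1.

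**Figure D3:**
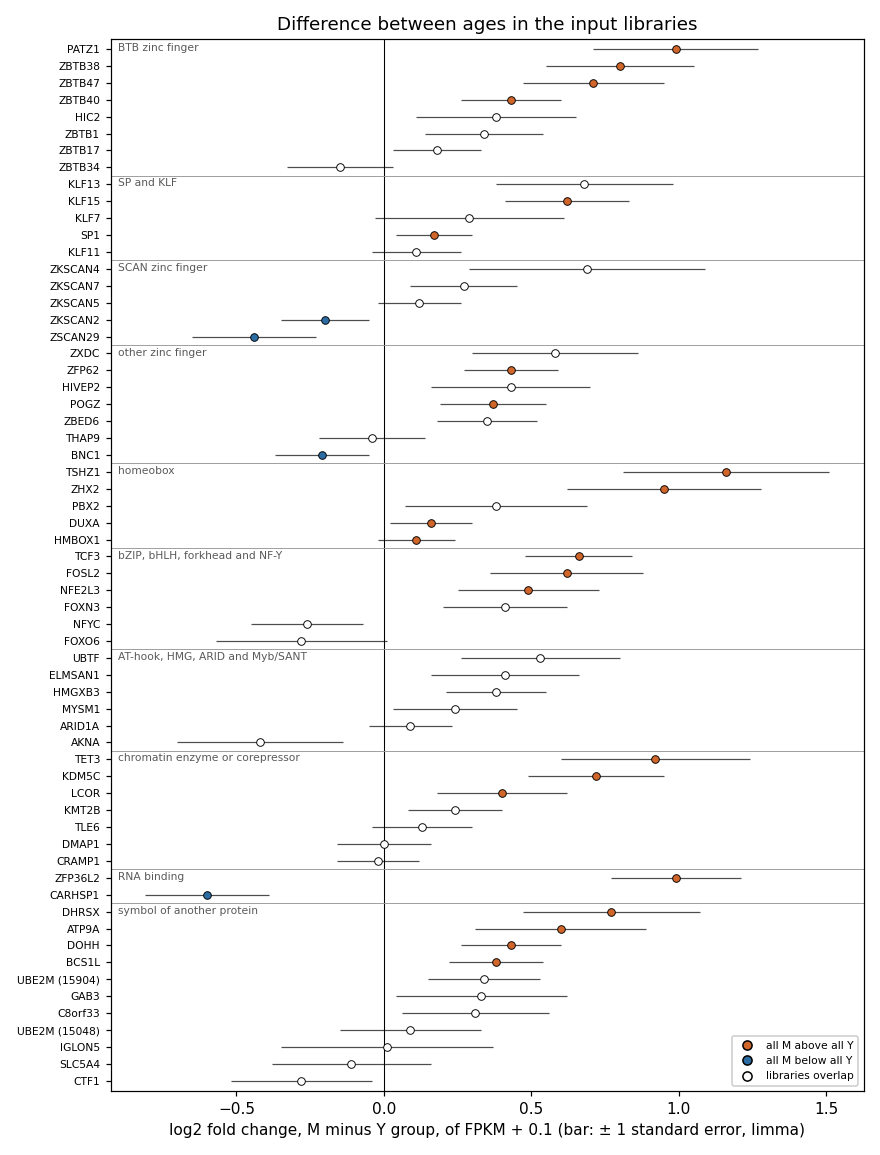
Log2 fold change, M minus Y group, of FPKM + 0.1 for the 62 tested genes (x axis), by class, with bars of ± 1 standard error from limma. Filled points mark the 23 genes with all M group libraries above the Y group (orange) and the 4 with all below (blue), and none of the 62 had an adjusted p-value under 0.05.

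Counts by class are read against the same shares of all genes, 19.8% above and 13.9% below, and the classes are too small to be ranked by them. BTB zinc finger genes had 4 of 8 with all M group libraries above the Y group and none below (median log2 fold change 0.41). PATZ1, a repressor with a BTB domain and AT-hook, stood at 0.714, 0.912 and 0.961 FPKM in the Y group and at 2.54, 1.37 and 1.66 in the M group (log2 fold change 0.99 ± 0.28, SE, limma adjusted p = 0.154). ZBTB38, which binds methylated CpG, stood at 2.74, 2.6 and 2.63 in the Y group and at 6.94, 3.45 and 4.3 in the M group (0.80 ± 0.25, adjusted p = 0.157). In both genes the M group replicate 1 was the highest library and the M group replicate 2 the closest to the Y group. ZBTB47 (0.71 ± 0.24) and ZBTB40 (0.43 ± 0.17) also had no overlap, whereas HIC2, ZBTB1, ZBTB17 and ZBTB34 overlapped.

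All 5 SP and KLF genes had a log2 fold change above 0, from 0.11 for KLF11 to 0.68 for KLF13. KLF15, a Krüppel-like factor known from metabolic tissues, stood at 1.6, 1.64 and 1.58 FPKM in the Y group and at 3.04, 1.93 and 2.76 in the M group (0.62 ± 0.21). KLF13 stood at 2.62, 2.26 and 2.49 in the Y group and at 5.98, 2.53 and 4.18 in the M group, with the M group replicate 2 inside the range of the Y group (0.68 ± 0.30, adjusted p = 0.206). KLF15 and SP1 did not overlap between ages, and KLF7, KLF11 and KLF13 did.

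The 5 SCAN zinc finger genes had no gene with all M group libraries above the Y group (19.8% of all genes) and 2 with all below (13.9%). ZSCAN29 stood at 6.95, 6.72 and 7.53 FPKM in the Y group and at 3.76, 6.15 and 5.99 in the M group (log2 fold change -0.44 ± 0.21, adjusted p = 0.234). ZKSCAN2 stood at 3.09, 3.21 and 3.04 in the Y group and at 2.55, 2.97 and 2.58 in the M group (-0.20 ± 0.15, adjusted p = 0.397). In both genes the M group replicate 2 was the closest to the Y group. ZKSCAN4 stood at 1.19, 1.12 and 0.993 in the Y group and at 3.57, 1.11 and 1.54 in the M group, so that 1 M group library carried most of the difference and the ages overlapped. ZKSCAN7 (0.27 ± 0.18) also overlapped.

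Among the other zinc finger genes, BNC1 stood at 3.62, 3.73 and 3.94 FPKM in the Y group and at 2.74, 3.52 and 3.53 in the M group (-0.21 ± 0.16, adjusted p = 0.417). ZFP62 stood at 1.68, 1.64 and 1.56 in the Y group and at 2.17, 2.16 and 2.35 in the M group, without overlap (0.43 ± 0.16). ZBED6 stood at 4.46, 4.98 and 5.01 in the Y group and at 7.15, 4.98 and 6.53 in the M group, with the M group replicate 2 inside the range of the Y group. POGZ, a zinc finger protein with a transposase-derived domain, stood at 2.67, 2.87 and 2.58 in the Y group and at 4.26, 2.88 and 3.59 in the M group, so that the nearest libraries all but met (0.37 ± 0.18).

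Of the 5 homeobox genes, 4 had all M group libraries above the Y group (19.8% of all genes tested). TSHZ1, a teashirt zinc finger protein, stood at 0.589, 0.937 and 0.76 FPKM in the Y group and at 2.78, 1.14 and 1.84 in the M group, and its log2 fold change of 1.16 ± 0.35 was the largest of the 62 (adjusted p = 0.154). ZHX2, a repressor with zinc fingers and homeoboxes, stood at 0.509, 0.754 and 0.528 in the Y group and at 1.79, 0.833 and 1.24 in the M group (0.95 ± 0.33, adjusted p = 0.166). DUXA (0.16 ± 0.14) and HMBOX1 (0.11 ± 0.13) did not overlap either, but by differences of the size of their standard errors. DUXA stood on 12 identifiers. Per the article, reads that aligned to several places were excluded, and the effect on the level of DUXA was not tested.

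Of the bZIP, bHLH, forkhead and NF-Y class, 3 of 6 genes were higher in every M group library (19.8% of all genes). FOSL2 stood at 0.812, 0.732 and 0.542 FPKM in the Y group and at 1.21, 0.947 and 1.2 in the M group (0.62 ± 0.26, adjusted p = 0.192). TCF3, an E protein that pairs with cell type-specific bHLH factors, stood at 2.44, 3.3 and 3.17 in the Y group and at 5.11, 4.09 and 4.99 in the M group (0.66 ± 0.18, adjusted p = 0.154). NFE2L3 was the third gene (0.49 ± 0.24). FOXO6 and NFYC had lower means in the M group (-0.28 ± 0.29 and -0.26 ± 0.19), with overlap.

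The AT-hook, HMG, ARID and Myb/SANT class had no gene without overlap, although 5 of 6 fold changes were above 0. UBTF, a factor of ribosomal RNA transcription, had the largest (0.53 ± 0.27), and HMGXB3 stood at 5.02, 4.33 and 4.37 FPKM in the Y group and at 7.03, 5.02 and 6.05 in the M group (0.38 ± 0.17), meeting at 5.02. ELMSAN1, a subunit of a histone deacetylase complex, stood at 0.969, 1.14 and 1.12 in the Y group and at 1.92, 1.1 and 1.46 in the M group.

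Among the chromatin enzymes and corepressors, TET3, KDM5C and LCOR were higher in every M group library. TET3 stood at 0.5, 0.535 and 0.511 FPKM in the Y group and at 1.66, 0.858 and 0.84 in the M group (0.92 ± 0.32, adjusted p = 0.167). KDM5C, an X-linked histone demethylase, stood at 2.56, 2.36 and 2.61 in the Y group and at 5.76, 3.1 and 4.17 in the M group (0.72 ± 0.23, adjusted p = 0.157). LCOR stood at 1.95, 2.29 and 2.03 in the Y group and at 3.7, 2.34 and 2.46 in the M group (0.40 ± 0.22). The replicates of the Y group were close together in all 3 genes, and the spread lay in the M group. KMT2B (0.24 ± 0.16), TLE6 (0.13 ± 0.17), DMAP1 (0.00 ± 0.16) and CRAMP1 (-0.02 ± 0.14) overlapped.

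The 2 RNA binding proteins differed in opposite directions. ZFP36L2 stood at 6.49, 6.78 and 5.54 FPKM in the Y group and at 16.8, 9.73 and 11.9 in the M group (log2 fold change 0.99 ± 0.22, adjusted p = 0.154). CARHSP1 stood at 24.7, 21.6 and 25.3 in the Y group and at 11.7, 18.6 and 17.7 in the M group (-0.60 ± 0.21, adjusted p = 0.165). The ages did not overlap for either gene.

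Among the 13 genes with the symbol of another protein, 4 of 11 tested were higher in every M group library (19.8% of all genes), namely DHRSX, ATP9A, DOHH and BCS1L. DHRSX stood at 0.414, 0.408 and 0.322 FPKM in the Y group and at 0.81, 0.612 and 0.749 in the M group (0.77 ± 0.30, adjusted p = 0.182). BCS1L stood at 2.92, 3.29 and 2.61 in the Y group and at 4.24, 3.49 and 3.86 in the M group (0.38 ± 0.16). SLC5A4 stood at 3.48, 2.99 and 3.2 in the Y group and at 1.89, 3.82 and 3.6 in the M group, with no common direction.

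The difference was unequal between the M group libraries. The median over the 62 genes of log2(FPKM + 0.1) minus the Y group mean was 0.58 in the M group replicate 1, 0.12 in replicate 2 and 0.29 in replicate 3, and between -0.03 and 0.03 in the Y group libraries. The M group replicate 1 was the highest of the 6 libraries for 41 of the 62 genes, and for 33.7% of all genes tested. The M group replicate 2 was the lowest of its group for 39 of the 62 genes. The same share of all genes tested was not taken, so this count is not read as particular to these genes. Some lists of cell type markers moved with the same libraries, and others did not. The summed FPKM of the 4 elongating spermatid markers in the table was 1190, 1150 and 1170 in the Y group and 263, 849 and 731 in the M group, with no overlap for any of the 4. Summed Sertoli cell markers lay between 15.2 and 18.9 FPKM in the Y group and between 21 and 29.9 in the M group, with 3 of 5 above all Y group libraries. Summed peritubular and stromal markers lay between 16.4 and 19.2 and between 23.5 and 36.2, with 4 of 6 above. Summed spermatogonial markers lay between 50.4 and 58.5 and between 58.8 and 111, with 1 of 5 above, and summed macrophage markers between 7.53 and 13.8 and between 14.7 and 35.4, with 2 of 5 above. CD163, the other macrophage marker without overlap, was lower in the M group, at 0.255, 0.368 and 0.356 against 0.556, 1.18 and 0.915 FPKM. In the M group replicates 1, 2 and 3, the median difference was -0.10, 0.09 and 0.11 for spermatocyte markers. It was 0.21, 0.19 and 0.25 for endothelial markers and -0.40, -0.24 and -0.55 for Leydig cell markers. For lymphocyte markers it was 0.57, 1.09 and -0.01, and for erythroid markers 0.35, -0.23 and 0.29. The Leydig, lymphocyte and erythroid lists, of 2, 3 and 2 genes, also spread widely in the Y group. No marker of these lists was at 0 in all libraries. Their part in the differences of the 62 genes was not tested.

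**Figure D4:**
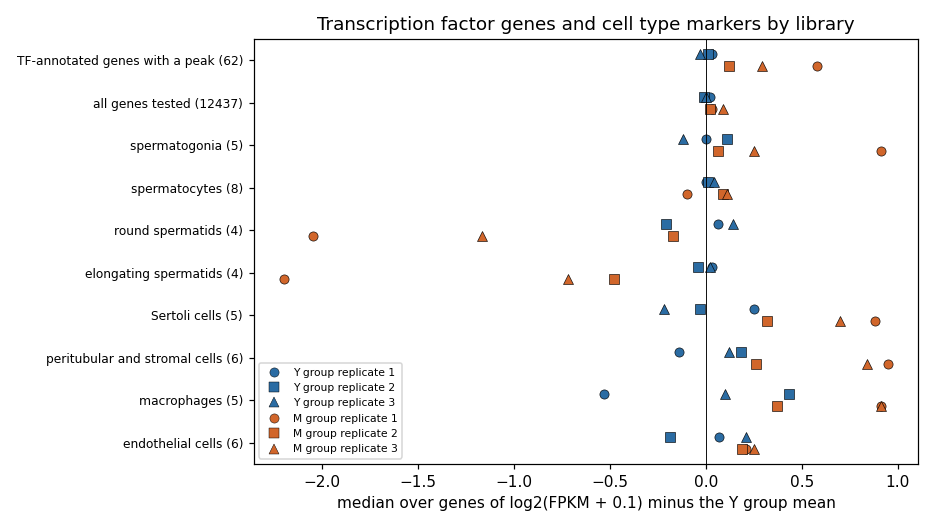
Median over the genes of a list of log2(FPKM + 0.1) minus the Y group mean (x axis) for each input library, with the 62 tested genes, all genes tested and cell type marker lists in rows (number of genes in brackets). The Leydig cell, lymphocyte and erythroid lists are not drawn. The M group replicate 1 lies farthest from the Y group for the 62 genes (0.58) and, in the other direction, for round (-2.05) and elongating (-2.20) spermatid markers, with the M group replicate 2 nearer to the Y group.

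Counts depended on single libraries. Leaving out the Y group replicates 1, 2 and 3 in turn gave 10, 9 and 6 genes that were higher in the M group at the unadjusted threshold, beside 9.34%, 9.56% and 8.31% of all genes tested. Leaving out the M group replicates 1, 2 and 3 gave 7, 29 and 7, beside 9.99%, 21.8% and 8.36% of all. The 23 genes above all Y group libraries became 41 without the M group replicate 2, and the share of all genes became 33.4%. Leaving out a library can only keep or raise a count of genes without overlap, so a rise alone shows little. The counts over these genes and over all genes moved the same way. Without the M group replicate 2, 11 of the 62 genes had an adjusted p-value under 0.05 in limma, as had 19.3% of all genes tested. PATZ1, ZBTB38, ZBTB47, ZFP36L2, KLF13, KLF15, KDM5C, TSHZ1, ZHX2, TCF3 and UBTF were these 11, and without that library their log2 fold changes lay between 0.76 (TCF3) and 1.48 (TSHZ1).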

How the data were processed

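The FPKM values were deposited by the authors for the 6 input libraries, 1 value per gene. Per the article's methods, reads were trimmed, rRNA reads removed and the rest aligned to LU_Bosgru_v3.0 (HISAT2 2.0.4 in the submitters' processing notes); the program that gave FPKM is not given in the sources used here. The authors called differential peaks with MeTDiff (p at most 0.05, fold change at least 1.5) and annotated them with ChIPseeker. Counts of fragments are not in the table, so the depth behind a value is unknown here.

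For genes with a mean of at least 0.5 FPKM (12437), the ages were compared in R 4.3.3 by limma 3.58.1 (eBayes with trend) on log2(FPKM + 0.1), which understates changes of low genes. Tests were two-sided, with Benjamini-Hochberg adjustment over all genes tested, and the steps were tested on simulated data. Libraries were taken as separate animals, since the labels give 3 yaks per age. Fold changes are M minus Y group. Tables were made with pandas 2.3.3, numpy 2.4.6 and Python 3.11.15, and figures with matplotlib 3.10.9.

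The genes, the classes and the lists of testis transcription factors and markers were chosen with earlier results of these data known. Genes were named by rule: those with 2 or more peaks, those on the testis lists, up to 8 largest rises and 8 largest falls without overlap between ages, and the 5 highest levels; other genes were named after their values were seen. Alternatives were other pseudocounts, filters, scalings, forms of eBayes, a replicate block, each library left out, peaks of at most 1000 bp, merged peaks and other gene sets. Not analysed here were IP values by gene, the peak lists of single groups and peak sequences. Columns of per-sample values not used numbered 0. A gene on the testis lists is not reported here.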

Additional observations from a re-analysis of the deposited data

How the results depend on the processing

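Of 26 named genes under 16 or 17 alternatives each (4 genes were under the filter of a mean of at least 1 FPKM), 429 values kept their direction and side of the threshold, 7 passed an adjusted p-value of 0.05 in limma (all without the M group replicate 2: PATZ1, ZBTB38, ZFP36L2, KLF13, KDM5C, TSHZ1 and ZHX2) and 2 reversed, both of SLC5A4, whose log2 fold change of -0.11 became 0.01 with equal FPKM sums and lay between -0.29 and 0.20 with single libraries left out (0.20 without the M group replicate 1). Equal FPKM sums moved the median of all genes from 0.04 to 0.17, and that of the 62 genes from 0.35 to 0.47. With single libraries left out, genes at an unadjusted p-value under 0.05 numbered 6 to 29 (higher) and 0 to 3 (lower), those at an adjusted p-value under 0.05 numbered 0 to 11, those above all Y group libraries 24 to 41, and the median was 0.21 to 0.48. Over all 12437 genes tested, these 4 counts ran from 1034 to 2713, 607 to 2279, 0 to 2403 and 2759 to 4159. Leaving out a library can only keep or raise the count above all Y group libraries. Lower genes at an unadjusted p-value under 0.05 numbered 2 with median centring, and genes below all Y group libraries 2 with equal FPKM sums. Over all 12437 genes tested, these counts were 1689 and 1288. With ZNF genes put back, lower genes at that p-value numbered 2 (10.9% of all genes tested) and genes above all Y group libraries 37 of 88 (19.8%). The causes were not tested. Higher and lower genes at that p-value, 1767 and 1356 of all tested, became 2419 and 1055 with equal FPKM sums and 1439 and 1689 with median centring. Without the 13 genes with the symbol of another protein, 13 were higher, 19 lay above all Y group libraries and the median was 0.37. Beside these counts stand 14.2% and 19.8% of all genes tested, and this alternative was chosen after seeing the data. A replicate block gave 11 higher genes in place of 16 (11.3% in place of 14.2% of all genes tested) and reversed none of the named genes. Deviations of libraries of the same number had correlations of -0.0222, -0.0909 and 0.00668, within the range of differently numbered libraries (-0.13 to 0.144). With 3 libraries per age, these values cannot show whether libraries of the same number shared a batch. With FPKM alone, the precision of low genes is unknown.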

Other observations

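Many transcription factors of the testis with a differential peak lacked the GO annotation and are outside the 64 genes. Of 140 symbols on lists of testis transcription factors, 115 were in the table and 14 had a differential peak, of which only SP1 and FOSL2 had the annotation. For a symbol on several identifiers, an identifier with a peak was taken first. The count of 14 is therefore not comparable with the 1179 of all 20953 genes that had a peak. Of the 85 tested, 19 had an unadjusted limma p-value under 0.05 with higher levels in the M group (14.2% of all genes tested), 11 with lower levels (10.9%) and 0 an adjusted p-value under 0.05 (0.0322%), and the median log2 fold change was 0.17. Others with a peak included CEBPB, GATA6, MAF, NR0B1, NR2F2, NR3C1, RARA, RFX2, TAF4B, TAL1 and ZBTB16. MAF, a bZIP factor of macrophages, stood at 2.48, 1.69 and 1.86 FPKM in the Y group and at 6.68, 3.15 and 4.47 in the M group (log2 fold change 1.16 ± 0.29, SE). TAF4B, a TFIID subunit needed to maintain spermatogonia, stood at 4.99, 5.33 and 4.59 and at 9.85, 6.7 and 7.44 (0.66 ± 0.18). All M group libraries lay above the Y group in both genes. RFX2, a regulator of spermatid genes, stood at 15.2, 13.8 and 11.4 and at 7.86, 14.2 and 14.3, with overlap (-0.19 ± 0.26).

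By family, 8 nuclear receptor genes had a differential peak and none was among the 64, whereas all 5 SP and KLF genes with a peak were. Of 11 ZBTB genes with a peak, 8 had the annotation. No ETS, T-box or POU gene had a differential peak, of 57, 30 and 17 genes in the table. Of all 20953 genes, 1179 had a differential peak, so few would be looked for in families of this size. Families were read from symbol patterns, so their totals may hold genes outside the family.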
